A study of Mus musculus with 12 samples.

Results

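Genes of vitamin A (retinoid) storage and retinoic acid metabolism were followed in the livers of mice that differed in estrogen receptor alpha. The 7 genes were Lrat, Retsat, Dhrs3, Aldh1a1, Aldh1a7, Cyp26a1 and Rarb. They were listed by symbol and not picked by a threshold, but they were chosen with earlier results of these data known. Each was matched to the array by its platform gene symbol, through its probe set with 1 symbol and the highest mean. All 7 were found, each with 1 probe set, among 19935 genes with such a probe set, and all 7 were among the 13987 genes that passed the filter on low values. Livers came from ovariectomized C57BL/6 mice 3 months old, which had recovered for 1 week and were then injected daily for 3 days. The 6 groups were MOER mice, which per the labels have only membrane estrogen receptor alpha, given PPT; MOER mice given oil; ERKO mice, which lack the receptor, given PPT; ERKO mice given oil; WT mice given PPT; and WT mice given oil. PPT, an agonist selective for estrogen receptor alpha, was given at 100 µg per day, and oil at 0.1 mL. The RNA of 3 animals was pooled for each array and the experiment was run again, which gave 2 Affymetrix Mouse Gene 1.0 ST arrays per group and 12 in all. The labels do not say how the receptor was deleted or how the membrane form is driven, nor whether the paired pools came from separate animals, so p-values measure only the spread between these arrays. The series asks whether estrogen acts on liver lipid through the receptor at the membrane.

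Retinol that reaches the liver is joined to a fatty acid and stored as retinyl ester, mostly in the lipid droplets of hepatic stellate cells, and is freed again by ester hydrolases. Retinol is oxidised reversibly to retinal, and retinal is oxidised irreversibly to retinoic acid, the ligand of the nuclear receptors RAR. Retinoic acid is cleared by cytochromes of the Cyp26 family, and it raises transcription of both Cyp26a1 and Rarb, which are classical retinoic acid targets.

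Before the results on these genes, the arrays themselves were examined. Esr1, which encodes the deleted receptor, read 117 and 131 in MOER PPT, 126 and 128 in MOER oil, 145 and 162 in ERKO PPT, and 126 and 118 in ERKO oil livers, against 309 and 325 in WT PPT and 347 and 365 in WT oil livers. The ERKO oil arrays stood apart from each other, with 162 probe sets over 2-fold apart, against 2 to 21 in the other 5 groups. In the MOER oil arrays the summed intensity of 11 pancreatic acinar markers was 36603 to 46737, against 485.7 to 746 in the other 5 groups, and all 11 tested were higher there than in WT oil. Among them Cpa1, Cpb1, Cel, Rnase1 and Clps passed the filter on low values only through the MOER oil arrays, so that count is descriptive only. In the ERKO PPT arrays the sum of 14 squamous and airway epithelial markers was 6222 to 6557, against 459.6 to 623 in the other 5 groups. Of 9 tested, 4 were called higher after PPT in ERKO (Krt13, Sprr3, Scgb1a1 and Sftpc), and the other 5, among them Krt5 and Foxj1, were not called. Those 4 passed the filter on low values only through the ERKO PPT arrays, so their calls are descriptive only. The part of the acinar and the squamous and airway markers in the MOER and ERKO values below was not tested. Levels below are linear intensities, changes are on the log2(intensity + 16) scale, and a change was called at a Benjamini-Hochberg adjusted p under 0.05 in limma over 19119 probe sets.

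After PPT, 1 of the 7 genes was called in MOER livers, 3 in ERKO livers and 6 in WT livers. Over all probe sets tested the called shares were 4.66% in MOER (2.35% higher, 2.31% lower), 17.9% in ERKO (9.48% higher, 8.46% lower) and 31.0% in WT (14.8% higher, 16.2% lower). In MOER livers Retsat fell, and in ERKO livers Retsat, Dhrs3 and Cyp26a1 fell. In WT livers Lrat, Aldh1a1, Aldh1a7, Dhrs3 and Retsat fell and Cyp26a1 rose, while Rarb did not pass the test. The median change of the 7 genes was -0.37 in MOER, -0.24 in ERKO and -0.88 in WT, beside medians over all tested probe sets of 0.00063, 0.03 and 0.02. Because the 7 were chosen with earlier results known, their counts and medians beside those of all probe sets are descriptive only. The 3 responses come from separate arrays, so none of them shares its oil controls with another. The Cyber-T-style test of the labels, which asks for a 2-fold change, called 0 of the 7 in MOER, 1 in ERKO (Retsat) and 4 in WT, where it did not call Aldh1a7 and Dhrs3. With only the ERKO arrays in the fit, 1 of the 3 ERKO calls was kept, that of Retsat.

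**Figure D1:**
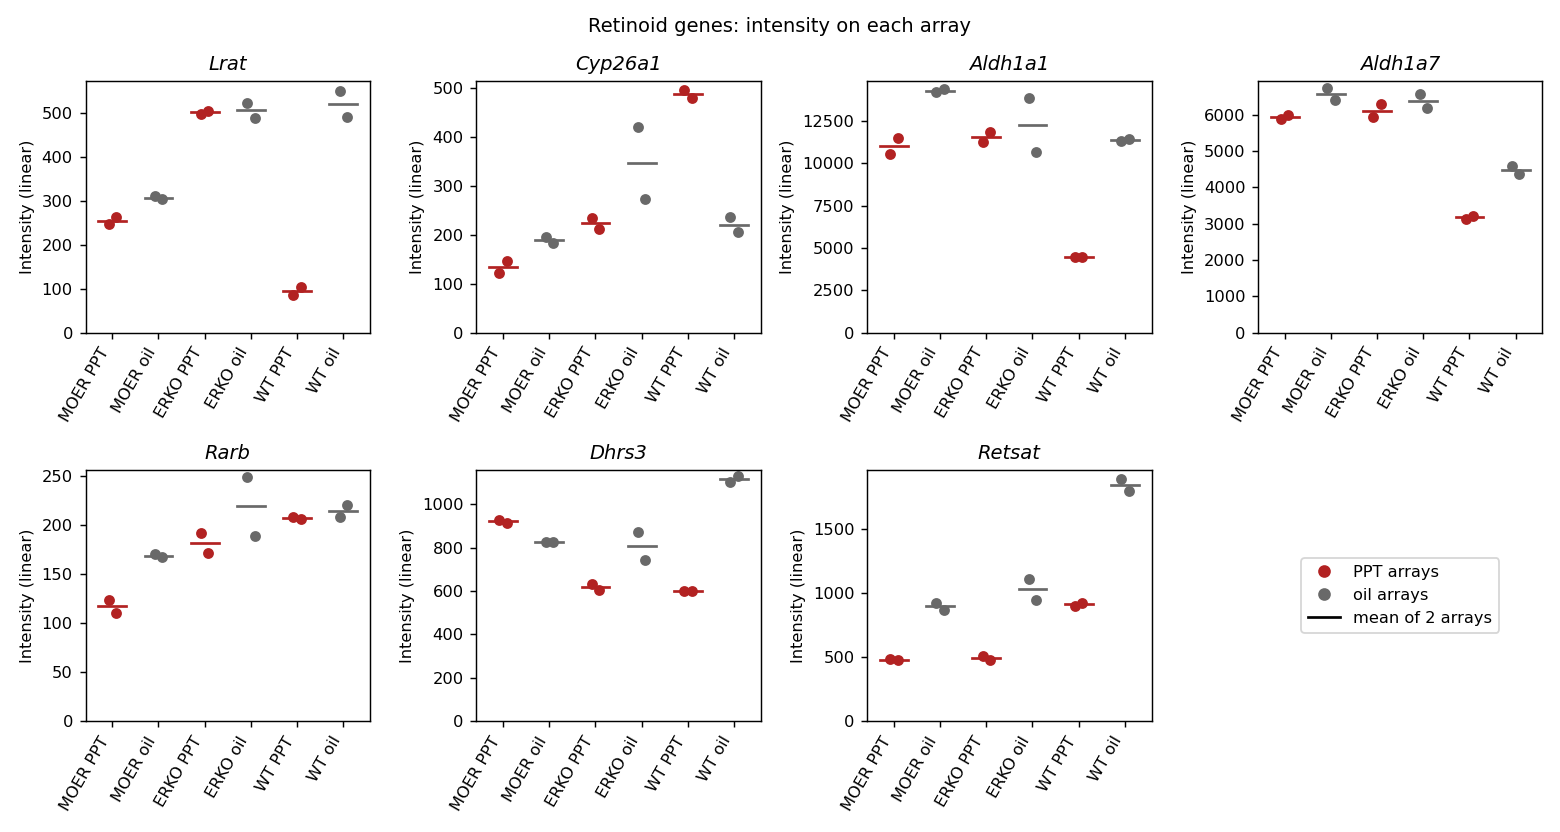
Linear intensity of the 7 retinoid genes in each of the 12 arrays, with 1 panel per gene. Points are single arrays and horizontal lines are the means of 2 arrays. Lrat in WT PPT livers, at 85.2 and 103, lay below all 10 other arrays, and Cyp26a1 in WT PPT livers, at 496 and 481, lay above all 10.

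Lrat (lecithin retinol acyltransferase, the enzyme that makes retinyl esters from retinol, expressed in liver mainly by stellate cells) had the widest span of group means among the 7 genes, 2.28 log2 units. The gene lies at chr3:82892582-82903974 in GRCm38.p6. Lrat read 246 and 263 in MOER PPT livers, against 309.6 and 304 in MOER oil livers. It read 498 and 505 in ERKO PPT livers, against 522 and 489 in ERKO oil livers. It read 85.2 and 103 in WT PPT livers, against 549 and 491 in WT oil livers. The 2 WT PPT arrays were the lowest of all 12, the 4 MOER arrays lay between, and the ERKO PPT, ERKO oil and WT oil arrays overlapped. The change was -0.26 (95% interval -0.48 to -0.03, adjusted p = 0.258) in MOER and -0.01 (-0.24 to 0.22, adjusted p = 0.955) in ERKO livers, and neither was called. In WT livers Lrat fell by 2.28 (SE 0.10, adjusted p = 6.8e-08), a 4.87-fold change. The response was 2.03 higher in MOER than in WT (SE 0.15, adjusted p = 4.84e-06) and 2.27 higher in ERKO than in WT (SE 0.15, adjusted p = 1.68e-06), whereas MOER minus ERKO was -0.25 (-0.57 to 0.08, adjusted p = 0.323). These 3 calls held when any 1 of the 12 arrays was left out.

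Because Lrat marks stellate cells, the whole stellate list was set beside it. Of 16 tested stellate markers, Lrat included, 1 rose and 0 fell after PPT in MOER livers, 4 rose and 0 fell in ERKO livers, and 0 rose and 8 fell in WT livers. Over all tested probe sets 2.35% rose and 2.31% fell in MOER, 9.48% and 8.46% in ERKO, and 14.8% and 16.2% in WT. The summed intensity of the 17 listed markers was 10398 to 10848 in MOER PPT, against 8968 to 9118 in MOER oil, and 10047 to 10161 in ERKO PPT, against 8940.1 to 10075 in ERKO oil livers. It was 7385 to 7425 in WT PPT livers, against 9366 to 9481 in WT oil livers, so that the PPT arrays were the lower ones in WT and not in MOER. Dcn made up most of this sum in every group, so the sum does not describe the whole list. Dcn averaged 6143 in MOER PPT against 5106 in MOER oil livers, and 4700 in WT PPT against 5054 in WT oil livers. Reln (reelin) read 128 and 147 in WT PPT livers, against 305 and 299 in WT oil livers, a fall of 1.06 (adjusted p = 2.5e-05). Lhx2, a transcription factor of stellate cells, fell by 0.52 in WT livers, whereas Pdgfrb (0.29), Dcn (-0.10) and Col1a1 (0.08) were not called. Des and Acta2, genes of contractile and activated stellate cells and also of smooth muscle, rose by 2.16 and 1.10 in ERKO livers. Acta2 also read higher in MOER PPT livers, at 288 and 293, against 164 and 169 in MOER oil livers. None of the 17 was at 0 in any group, but some were dim, below the 40th percentile of both arrays of a group. Dim markers were 1 in MOER PPT, 2 in MOER oil, 3 in ERKO PPT, 2 in ERKO oil, 4 in WT PPT and 2 in WT oil. Lhx2 was dim in WT PPT livers (49.6 and 42.5) and Des in ERKO oil livers (40.1 and 27.8). The Lhx2 fall in WT and the Des rise in ERKO therefore involve values near the low end. The fall of Lrat in WT was larger than that of any other stellate marker tested. In whole liver, fewer cells of a type and less RNA per cell cannot be told apart.

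**Figure D2:**
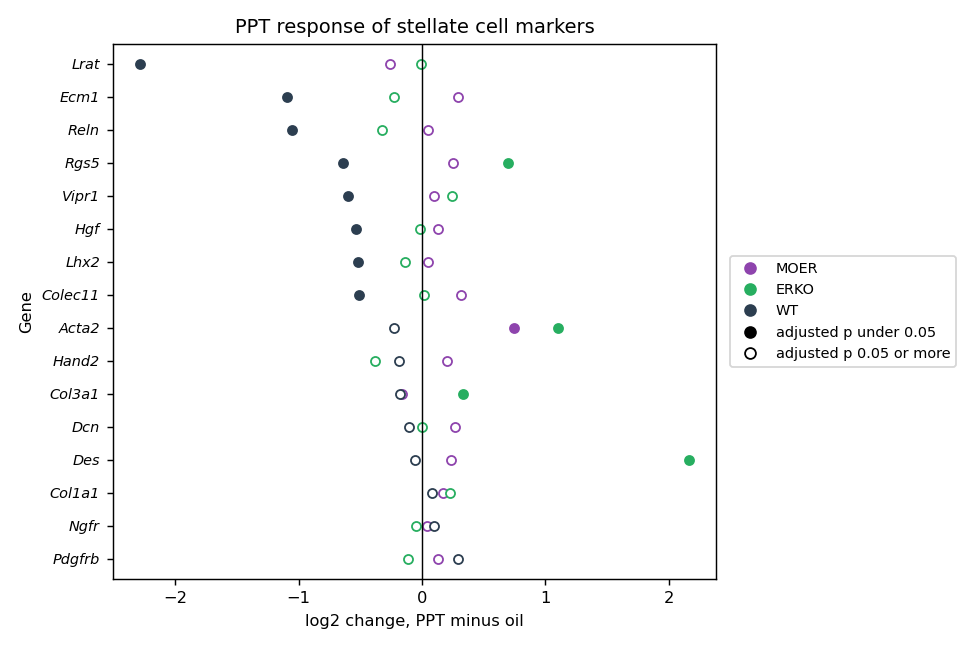
log2 change after PPT of the 16 tested stellate markers in MOER, ERKO and WT livers from the limma fit, with 1 point per genotype; filled points have an adjusted p under 0.05. In WT livers 8 markers fell and none rose, with Lrat (-2.28) the farthest from 0.

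Retsat (retinol saturase, which in the mouse saturates a double bond of retinol to give dihydroretinol) was the 1 gene of the 7 called in all 3 genotypes. It lies at chr6:72598602-72607488. Retsat read 482 and 475 in MOER PPT livers, against 925 and 868 in MOER oil livers. It read 506 and 479 in ERKO PPT livers, against 1109 and 949 in ERKO oil livers. It read 897 and 927 in WT PPT livers, against 1891 and 1796 in WT oil livers. In each genotype both PPT arrays lay below both oil arrays, and the PPT level of WT livers overlapped the oil level of MOER livers. Retsat fell by 0.88 in MOER (SE 0.10, adjusted p = 0.000284), by 1.04 in ERKO (SE 0.10, adjusted p = 6.4e-05) and by 1.00 in WT (SE 0.10, adjusted p = 1.79e-05). The differences between responses were 0.12 for MOER minus WT (95% interval -0.18 to 0.42), -0.03 for ERKO minus WT (-0.33 to 0.27) and 0.15 for MOER minus ERKO (-0.15 to 0.45). None of the 3 was called (adjusted p = 0.631, 0.907 and 0.531), which leaves differences of up to the ends of these intervals possible. The 3 falls were called with any 1 array left out.

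Dhrs3 (a short-chain dehydrogenase that reduces retinal back to retinol) lies at chr4:144892534-144928209. It read 929 and 914 in MOER PPT livers, against 824 and 827 in MOER oil livers. It read 631 and 605 in ERKO PPT livers, against 874 and 743 in ERKO oil livers. It read 602 and 600.1 in WT PPT livers, against 1100.2 and 1132 in WT oil livers. WT oil arrays were the highest of the 12 and WT PPT arrays the lowest. The MOER change was 0.16 (-0.05 to 0.36, adjusted p = 0.515) and was not called, whereas Dhrs3 fell by 0.38 in ERKO (SE 0.09, adjusted p = 0.0207) and by 0.88 in WT (SE 0.09, adjusted p = 3.83e-05). The response was 1.03 higher in MOER than in WT (adjusted p = 0.000245), 0.50 higher in ERKO than in WT (adjusted p = 0.0204) and 0.53 higher in MOER than in ERKO (adjusted p = 0.0278). The ERKO fall was lost without either ERKO PPT array, with an adjusted p of 0.0698 without replicate 1 and 0.131 without replicate 2, the ERKO minus WT difference was lost in 5 of 12 omissions and the MOER minus ERKO difference in 10. The WT fall and the MOER minus WT difference were kept in all 12.

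Aldh1a1 and Aldh1a7 lie side by side on chromosome 19, at chr19:20492583-20643463 and chr19:20692953-20727556. Aldh1a1 (retinal dehydrogenase 1, an abundant liver enzyme that oxidises retinal to retinoic acid) has Aldh1a7 as a rodent paralogue. Their start regions are shown because they show how alike the 2 genes are beyond the transcript. Both are RefSeq windows of GRCm38.p6, 250 bases before to 50 bases after a listed start, and capitals mark the longest run of identical bases at the same distance from the start. The Aldh1a1 window is chr19:20601718-20602017 on the plus strand, the second of 2 listed starts, and the Aldh1a7 window is chr19:20727507-20727806 on the minus strand.
Aldh1a1: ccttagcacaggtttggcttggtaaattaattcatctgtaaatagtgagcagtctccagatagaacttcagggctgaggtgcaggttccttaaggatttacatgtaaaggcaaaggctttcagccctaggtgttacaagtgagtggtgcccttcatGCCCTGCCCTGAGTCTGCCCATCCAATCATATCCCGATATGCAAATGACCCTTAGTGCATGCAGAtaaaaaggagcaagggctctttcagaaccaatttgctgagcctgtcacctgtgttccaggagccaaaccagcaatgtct
Aldh1a7: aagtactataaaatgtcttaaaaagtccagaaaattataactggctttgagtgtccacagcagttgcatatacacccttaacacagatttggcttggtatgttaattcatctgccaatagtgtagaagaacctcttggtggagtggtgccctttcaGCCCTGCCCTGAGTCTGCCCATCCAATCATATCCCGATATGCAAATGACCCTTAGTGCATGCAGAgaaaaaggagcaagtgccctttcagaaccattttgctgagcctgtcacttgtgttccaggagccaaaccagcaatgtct
The capital run is 65 bases long, 94 to 30 bases before the start, and 177 of the 300 bases (59%) were identical at matching positions. For the first listed Aldh1a1 start, 77 of 300 were identical. Probes that read both transcripts could carry a change of one gene into the value of the other, and the files do not show which probes do.

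Aldh1a1 fell in WT livers after PPT. It read 10564 and 11475 in MOER PPT livers, against 14203 and 14354.5 in MOER oil livers. It read 11249.7 and 11856 in ERKO PPT livers, against 13842 and 10642.5 in ERKO oil livers. It read 4479 and 4478 in WT PPT livers, against 11315 and 11445 in WT oil livers. The 2 WT PPT arrays lay far below the other 10, and the MOER oil arrays were the highest. The change was -0.37 (-0.63 to -0.11, adjusted p = 0.125) in MOER and -0.07 (-0.33 to 0.19, adjusted p = 0.726) in ERKO livers, neither called, and Aldh1a1 fell by 1.34 (SE 0.12, adjusted p = 8.65e-06) in WT livers. The MOER fall was called with median centring (adjusted p = 0.0376), quantile normalization (0.0256) and an intensity trend (0.0327). With quantile normalization the ERKO change was -0.26 and was also called (adjusted p = 0.0176). The response was 0.97 higher in MOER than in WT (SE 0.17, adjusted p = 0.0017) and 1.27 higher in ERKO than in WT (SE 0.17, adjusted p = 0.000323), and both calls held with any 1 array left out. The MOER change passed the threshold without either ERKO oil array (adjusted p = 0.0107), where the spread estimate no longer includes the difference between those 2 arrays.

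Aldh1a7 also fell in WT livers. It read 5875 and 5981 in MOER PPT livers, against 6747 and 6399.6 in MOER oil livers. It read 5930.4 and 6296 in ERKO PPT livers, against 6564 and 6174 in ERKO oil livers. It read 3134 and 3212 in WT PPT livers, against 4577 and 4380.5 in WT oil livers. The 4 WT arrays lay below all 8 MOER and ERKO arrays. The change was -0.15 (-0.34 to 0.04, adjusted p = 0.49) in MOER and -0.06 (-0.25 to 0.13, adjusted p = 0.686) in ERKO, and Aldh1a7 fell by 0.49 (SE 0.09, adjusted p = 0.00113) in WT livers, a 1.41-fold change. The ERKO response was 0.44 higher than that of WT (adjusted p = 0.025), a call that was lost in 5 of the 12 omissions, up to an adjusted p of 0.102. MOER minus WT was 0.35 (adjusted p = 0.0666), which passed without either ERKO oil array (adjusted p = 0.0254).

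Cyp26a1 (the main hydroxylase that clears retinoic acid in liver) was the 1 gene of the 7 that rose after PPT in WT livers. The start regions of Cyp26a1 and Rarb are shown because, of the 7 genes, these 2 hold a DR5 in a RefSeq window, the arrangement through which retinoic acid receptors are known to act on both. A DR5 was searched as 2 half-sites, each AGGTCA with A or G allowed as the first base and G or T as the third, in the same direction with 5 bases between them, on both strands, and capitals mark the match. The Cyp26a1 window is chr19:37697558-37697857 on the plus strand, and the Rarb window is chr14:16575427-16575726 on the minus strand, both in GRCm38.p6.
Cyp26a1: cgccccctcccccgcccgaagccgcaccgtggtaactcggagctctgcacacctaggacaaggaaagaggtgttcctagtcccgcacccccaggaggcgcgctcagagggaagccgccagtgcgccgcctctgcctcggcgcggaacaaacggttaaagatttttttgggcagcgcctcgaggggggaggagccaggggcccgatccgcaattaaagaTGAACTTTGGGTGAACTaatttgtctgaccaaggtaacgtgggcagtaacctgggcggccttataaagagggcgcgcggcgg
Rarb: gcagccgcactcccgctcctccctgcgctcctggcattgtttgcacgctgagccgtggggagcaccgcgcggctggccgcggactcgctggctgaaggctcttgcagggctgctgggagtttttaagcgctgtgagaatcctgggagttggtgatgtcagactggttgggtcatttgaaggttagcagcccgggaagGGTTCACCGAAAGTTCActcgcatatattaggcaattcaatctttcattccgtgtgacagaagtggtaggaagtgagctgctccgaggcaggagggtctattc
The Cyp26a1 match lies 32 to 16 bases before the start and reads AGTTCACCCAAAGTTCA on the minus strand. The Rarb match lies 53 to 37 bases before the start and reads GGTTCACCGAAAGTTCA. Of all 32851 RefSeq windows of this length, 32 (0.0974%) hold such a match. The estrogen response element, GGTCA and its reverse complement with 3 bases between them, was in no window of the 7 genes and in 23 (0.0700%) of all windows. A match describes letters in the window and shows no binding, and its absence says nothing of sites elsewhere.

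Cyp26a1, at chr19:37697738-37701536, read 121 and 147 in MOER PPT livers, against 197 and 183 in MOER oil livers. It read 235 and 213 in ERKO PPT livers, against 421 and 273 in ERKO oil livers. It read 496 and 481 in WT PPT livers, against 236 and 206 in WT oil livers. The direction differed between genotypes, with both PPT arrays above both oil arrays in WT and below them in MOER and in ERKO. The MOER change was -0.46 (-0.84 to -0.09, adjusted p = 0.209) and was not called, though it passed the threshold without either ERKO oil array. In ERKO livers Cyp26a1 fell by 0.57 (SE 0.17, adjusted p = 0.0419). In WT livers it rose by 1.09 (SE 0.17, adjusted p = 0.000554), a 2.13-fold change. The response was lower in MOER than in WT by a log2 difference of -1.55 (SE 0.24, adjusted p = 0.000841) and lower in ERKO than in WT by a log2 difference of -1.66 (SE 0.24, adjusted p = 0.000618), and both held with any 1 array left out. The ERKO fall did not hold: it was lost when any of 11 of the 12 arrays was left out. It was -0.27 (adjusted p = 0.14) without ERKO oil replicate 1, the highest ERKO array, and -0.87 (adjusted p = 0.00212) without ERKO oil replicate 2.

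Rarb (retinoic acid receptor beta, itself a retinoic acid target) had the narrowest span of group means, 0.81 log2 units. The gene lies at chr14:16430839-17082331. It read 124 and 110.2 in MOER PPT livers, against 170.3 and 167 in MOER oil livers. It read 192 and 172 in ERKO PPT livers, against 249 and 188 in ERKO oil livers. It read 208 and 206 in WT PPT livers, against 208 and 220.3 in WT oil livers. The 2 MOER PPT arrays were the lowest of the 12, and WT PPT and WT oil arrays overlapped. No response was called, at -0.48 (-0.75 to -0.20, adjusted p = 0.0573) in MOER, -0.24 (-0.51 to 0.03, adjusted p = 0.213) in ERKO and -0.05 (-0.32 to 0.23, adjusted p = 0.815) in WT. The MOER value lay near the threshold and passed it without either ERKO oil array (adjusted p = 0.00672). It also passed with the 60th percentile filter (0.0323), median centring (0.0218), quantile normalization (0.00923), an intensity trend (0.0428), the replicate number as a block (0.0451) and only the MOER arrays in the fit (0.0431). Of the 2 genes with a DR5 in their window, Cyp26a1 was called in WT livers and Rarb was not.

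**Figure D3:**
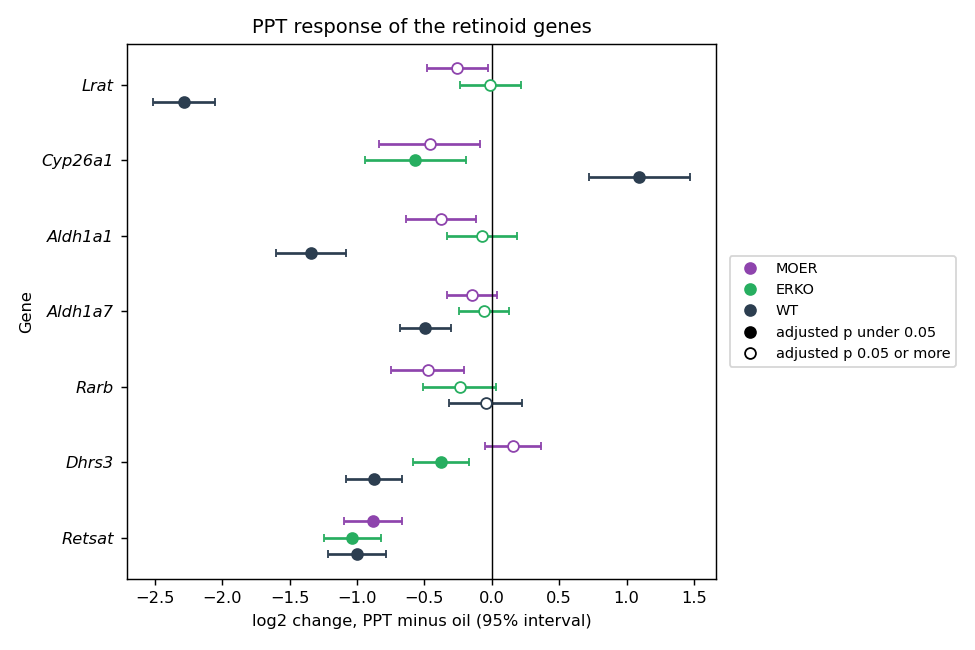
log2 change after PPT of the 7 retinoid genes in MOER, ERKO and WT livers, with 95% intervals; filled points have an adjusted p under 0.05. Retsat fell in all 3 genotypes (by 0.88 in MOER, 1.04 in ERKO and 1.00 in WT), whereas Lrat, Aldh1a1 and Cyp26a1 lie far from 0 in WT and nearer to 0 in MOER and ERKO.

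Set against WT, the PPT response of 4 of the 7 genes was called different in MOER and that of 5 in ERKO, and 1 gene differed between MOER and ERKO. The shares over all tested probe sets were 21.6%, 22.3% and 11.5%. The genes were Lrat, Aldh1a1, Dhrs3 and Cyp26a1 for MOER minus WT, the same 4 with Aldh1a7 for ERKO minus WT, and Dhrs3 for MOER minus ERKO. The first 2 of these comparisons share the WT arrays. With only the compared genotypes in the fit, Aldh1a7 and Dhrs3 were not called for ERKO minus WT (adjusted p = 0.06 and 0.0555), nor Dhrs3 for MOER minus ERKO (adjusted p = 0.104). The acinar sum moved with the MOER response, at 688 to 724 in MOER PPT livers against 36603 to 46737 in MOER oil livers, and the squamous and airway sum, through the 4 called markers, with the ERKO response, at 6222 to 6557 in ERKO PPT livers against 511 to 623 in ERKO oil livers. The part of either in the 7 genes was not tested. Other cell type lists moved too. Of 7 hepatocyte markers 0 were called lower after PPT in MOER, 2 in ERKO and 4 in WT, and of 8 pericentral hepatocyte markers 2 in MOER (1 was called higher there), 3 in ERKO and 6 in WT. Of 8 Kupffer cell markers 3 were called higher and 2 lower in MOER, 0 higher and 5 lower in ERKO, and 4 higher and 1 lower in WT. Of 7 endothelial markers 0 were called in MOER, 2 higher in ERKO, and 1 higher and 2 lower in WT. Their sum in WT was 3514 to 3593 after PPT, against 5813 to 6057 under oil. Clec4g made up most of that sum under oil, and averaged 1585 in WT PPT livers, against 4127 in WT oil livers. By their WT means, Stab2, Lyve1, Pecam1 and Cdh5 were higher after PPT, and Kdr and Stab1 lower, so the endothelial list had no single direction. In WT livers the hepatocyte sum was 58300.4 to 62301 after PPT, against 78519.5 to 79406 under oil, and the pericentral sum was 12197 to 12398 after PPT, against 25699 to 26042 under oil. The part of these lists in the 7 genes was not tested.

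Under oil, without PPT, 2 of the 7 genes differed between MOER and ERKO, 4 between MOER and WT and 3 between ERKO and WT. The shares over all tested probe sets were 2.05%, 5.66% and 5.01%, and the 3 comparisons share their oil arrays. Retsat was lower than in WT oil livers both in MOER (fell by 1.03, SE 0.10, adjusted p = 0.000147) and in ERKO (fell by 0.84, SE 0.10, adjusted p = 0.000774). Dhrs3 was lower in MOER by a log2 difference of -0.43 (adjusted p = 0.0254) and in ERKO by -0.46 (adjusted p = 0.021), and Aldh1a7 was higher by 0.55 in MOER (adjusted p = 0.00473) and by 0.51 in ERKO (adjusted p = 0.00858). Lrat was lower in MOER oil than in WT oil livers by -0.73 (SE 0.10, adjusted p = 0.00283) and lower than in ERKO oil livers by -0.69 (adjusted p = 0.00665), whereas ERKO minus WT was -0.04 (-0.27 to 0.19, adjusted p = 0.851). Cyp26a1 was lower in MOER oil than in ERKO oil livers by -0.79 (adjusted p = 0.0421). Its ERKO minus WT difference, 0.59 (adjusted p = 0.0757), was not called. That difference passed with the added constant of 64 (0.0411), the 60th percentile filter (0.0475), median centring (0.0204), quantile normalization (0.0201) and an intensity trend (0.0372). The 2 Retsat differences from WT and the Lrat difference of MOER from WT held with any 1 array left out. Leaving out either WT oil array ended the ERKO calls of Aldh1a7 (adjusted p = 0.0638 and 0.104) and Dhrs3 (0.123 and 0.163), and without WT oil replicate 2 the MOER call of Aldh1a7 was lost (0.0558). Leaving out either MOER oil array ended the Lrat difference between MOER and ERKO (0.0503 and 0.0728). The Dhrs3 call in MOER was lost in 6 of 12 omissions and the Cyp26a1 call in 10. With only the oil arrays of the compared genotypes in the fit, none of the 3 ERKO calls against WT (Retsat at an adjusted p of 0.0987) and neither of the 2 calls between MOER and ERKO was kept. The acinar markers were high in these same MOER oil arrays, and their part was not tested.

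**Figure D4:**
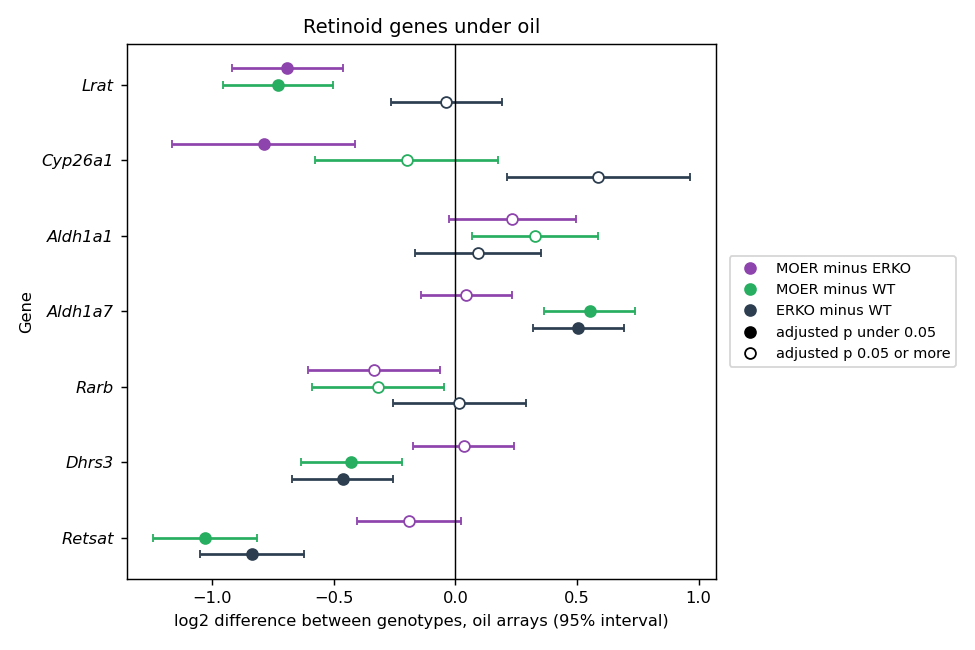
log2 difference between genotypes in oil-treated livers for the 7 genes, with 95% intervals; filled points have an adjusted p under 0.05. Retsat and Dhrs3 were lower and Aldh1a7 higher in MOER and ERKO than in WT livers, and Lrat was lower in MOER than in ERKO or WT livers.

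For the 5 genes whose group means span at least 1 log2 unit, the genes of most similar profile were sought among 13987, by the root mean square difference over the 12 arrays after each gene's mean was removed. Lrat was nearest to Aox3, an aldehyde oxidase, at 0.179, then Cnmd at 0.190 and Sp4 at 0.267 log2 units. Aox3 averaged 1043 in MOER PPT and 1227 in MOER oil livers, 1845 in ERKO PPT and 2074 in ERKO oil livers, and 313 in WT PPT and 1672 in WT oil livers. Cyp26a1 was nearest to Pparg, a nuclear receptor of lipid storage, at 0.203, then Snord42b at 0.229 and Sh3bgrl2 at 0.233. Aldh1a1 was nearest to Cyp2c54 at 0.0919, Nqo2 at 0.104 and Ugt3a1 at 0.122. Aldh1a7 was nearest to Cyp2c70 at 0.0998, Ncam2 at 0.107 and Sema3d at 0.113. Retsat had no gene as close, with Ephx1, a microsomal epoxide hydrolase, at 0.305, Inmt at 0.322 and Cish at 0.334. In WT livers these genes changed little after PPT, by 0.0026 (Ephx1), -0.15 (Inmt) and 0.048 (Cish), whereas Retsat fell by 1.00. These distances describe likeness over arrays that share their treatment groups.

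The other genes of the pathway came from a list of 60, of which 58 had a probe set with 1 symbol and 51 were tested. After PPT, 1 rose and 7 fell in MOER livers, 5 rose and 12 fell in ERKO livers, and 8 rose and 22 fell in WT livers, beside the shares over all probe sets given above. The median change of the 51 was -0.05 in MOER, -0.07 in ERKO and -0.32 in WT. By role in WT livers, 5 of 9 genes of esterification and hydrolysis fell and 1 rose, and 8 of 17 retinol and retinal oxidoreductases fell and 4 rose. Of 6 receptors 2 fell, Rxra by 0.97 and Rara by 0.53, both named after their values were seen. Of 6 carriers and binding proteins 2 fell and 1 rose. At least 2-fold, 5 of the 51 were called higher and 10 lower in WT livers, and not all of the 10 are named below. Those 10 include 1 of the 3 further retinoic acid hydroxylases tested, which is not named.

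Genes that oxidise retinol moved both ways in WT livers. Rdh10, which oxidises retinol to retinal, had a change of -0.05 in MOER (adjusted p = 0.905) and fell by 0.43 in ERKO (adjusted p = 0.0116). In WT it averaged 2482 in PPT livers, against 591 in oil livers, and rose by 2.04 (adjusted p = 8.28e-08). The response of Rdh10 differed from WT in MOER by -2.09 (adjusted p = 2.04e-06) and in ERKO by -2.47 (adjusted p = 5.28e-07). Adh7, an alcohol dehydrogenase active on retinol, had changes of 0.17 in MOER and 0.26 in ERKO that were not called. It read 833 and 924 in WT PPT livers, against 172 and 161 in WT oil livers, and rose by 2.29 (adjusted p = 4.36e-08). Dhrs9, a further retinol dehydrogenase, rose by 0.79 in ERKO and 1.32 in WT. In the other direction, Rdh16 fell by 0.62 in MOER, 0.91 in ERKO and 2.24 in WT. Adh4 rose by 0.35 in ERKO and fell by 1.89 in WT, at 1430.5 and 1375 in WT PPT livers against 5179 and 5291 in WT oil livers.

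Carboxylesterase genes fell in all 3 genotypes. Ces1d, a carboxylesterase that hydrolyses lipid esters, averaged 2222 in MOER PPT livers against 5465 in MOER oil livers, 1925 in ERKO PPT against 5558 in ERKO oil livers, and 1123 in WT PPT against 6163 in WT oil livers. It fell by 1.29 in MOER, 1.52 in ERKO and 2.44 in WT (adjusted p = 7.22e-06, 9.06e-07 and 1.13e-08). Its neighbours fell in all 3 genotypes too, Ces1e by 0.70, 1.13 and 1.60, Ces1f by 0.36, 0.74 and 1.63, and Ces1g by 0.69, 1.75 and 1.67 in MOER, ERKO and WT. The Ces1 genes are close copies, so their probe sets may share transcripts. The Ces1d fall was 1.15 smaller in MOER than in WT (adjusted p = 6.11e-05) and 0.92 smaller in ERKO than in WT (adjusted p = 0.000327). Lpl, lipoprotein lipase, was not called in MOER (-0.22) and rose by 1.69 in ERKO and 0.82 in WT. The ERKO oil arrays of Lpl lay far apart, at 158 and 78.6, against 405 and 391 in ERKO PPT livers, so the size of the ERKO rise is uncertain.

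Among binding proteins and retinoic acid responsive genes, Fabp5, a fatty acid binding protein that also carries retinoic acid, rose by 0.72 in MOER, 1.67 in ERKO and 2.79 in WT livers. Tgm2, transglutaminase 2, a gene that retinoic acid induces in several cell types, had the largest change of the listed genes. It read 610.2 and 593 in MOER PPT livers, against 489 and 496 in MOER oil livers, 366 and 337 in ERKO PPT livers, against 537 and 429 in ERKO oil livers, and 4912 and 4658 in WT PPT livers, against 495 and 490.4 in WT oil livers. Tgm2 was not called in MOER (0.28, adjusted p = 0.236), fell by 0.43 in ERKO (adjusted p = 0.0202) and rose by 3.24 in WT (adjusted p = 8.35e-09). Of the 5 tested genes of the retinoic acid responsive list, 1 rose and 2 fell in WT livers, so the list as a whole had no single direction there. Of the 2 genes named above as classical retinoic acid targets, Cyp26a1 rose by 1.09 in WT livers and Rarb was not called (-0.05, adjusted p = 0.815). Whether others of the 7 answer to retinoic acid was not examined.

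Under oil 2 of the 51 genes were called for MOER against ERKO, 4 for MOER against WT and 4 for ERKO against WT, beside 2.05%, 5.66% and 5.01% of all tested probe sets. The calls were 1 higher and 1 lower, 3 higher and 1 lower, and 2 higher and 2 lower, in that order. Aldh1a3, a retinal dehydrogenase, was higher than in WT by 0.50 in MOER (adjusted p = 0.033) and by 0.49 in ERKO (adjusted p = 0.04). Rdh11, which reduces retinal, was higher by 0.57 in both (adjusted p = 0.0179 in MOER and 0.022 in ERKO). These 2 genes were chosen for naming after their values were seen.

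**Figure D5:**
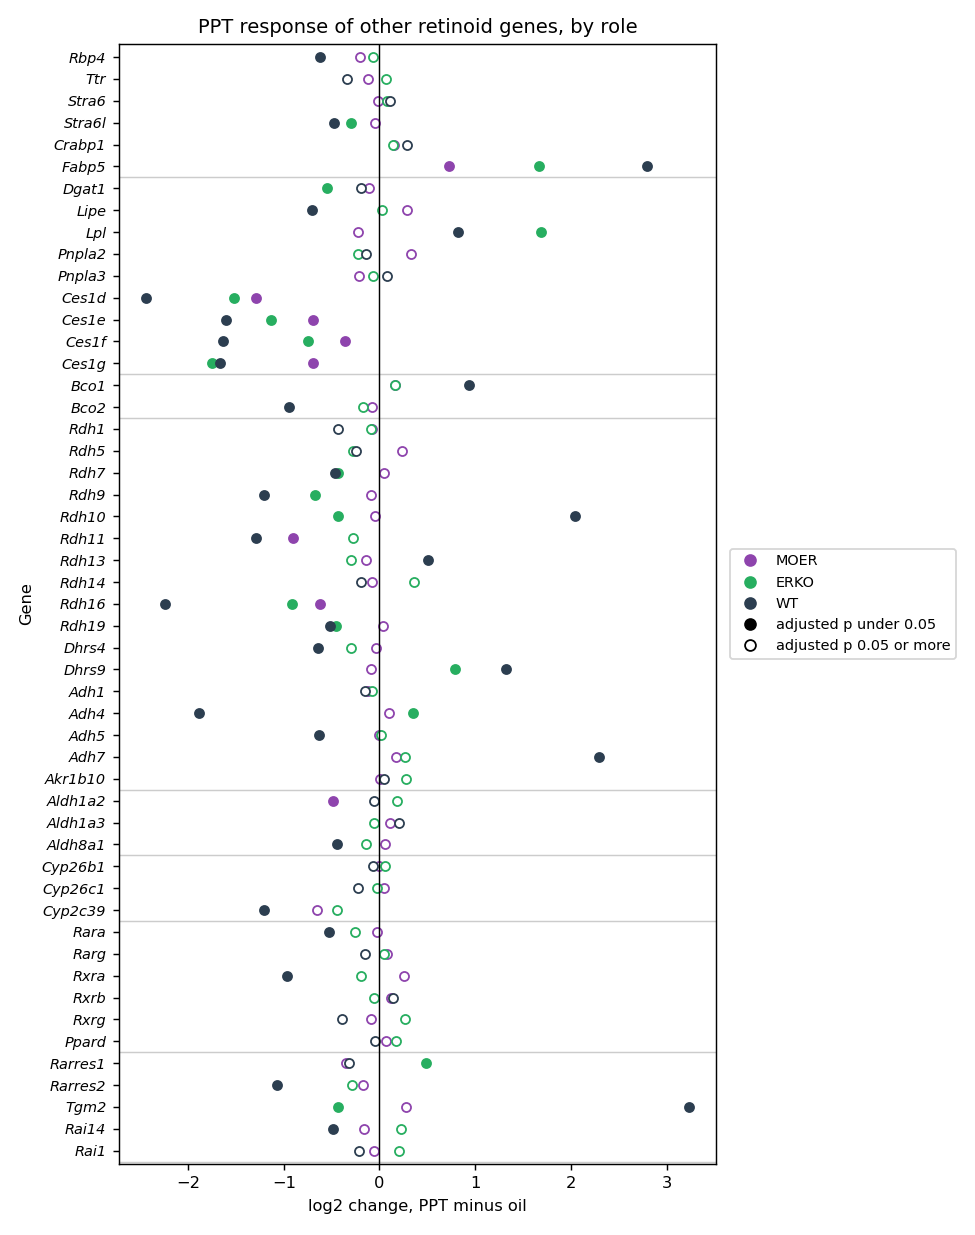
log2 change after PPT of the 51 other retinoid genes tested in MOER, ERKO and WT livers, ordered by role, with filled points at an adjusted p under 0.05. In WT livers Tgm2 (3.24), Fabp5 (2.79), Adh7 (2.29) and Rdh10 (2.04) lie farthest to the right, and Ces1d (-2.44) and Rdh16 (-2.24) farthest to the left.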

How the data were processed

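Each array measured liver RNA pooled from 3 animals. The authors' deposited table gave 1 linear intensity per probe set and array, for 28815 probe sets on 12 arrays. The authors' probe summary and array normalization were not given in the sources used here. Array medians lay between 77.5 and 85.26, and the deposited intensities were used without further scaling. Over the tested probe sets the median log2 value was 7.41 in ERKO oil replicate 2, against 7.48 to 7.58 in the other arrays. No detection calls or depth are in the table, and 2 arrays per group limit the precision.

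Gene symbols came from GEO's platform annotation: 21780 probe sets had 1 symbol, 1605 several and 5430 none, and 21689 matched RefSeq (GRCm38.p6). A gene was read from its 1-symbol probe set of highest mean. Of all probe sets, 19119 were tested, those that exceeded the 40th percentile of an array on 2 or more arrays. All 12 arrays entered 1 limma fit (limma 3.58.1, R 4.3.3) of 6 group means on log2(intensity + 16), with empirical Bayes moderation (6 residual degrees of freedom, 10.47 moderated), 9 two-sided contrasts, and Benjamini-Hochberg adjustment over all tested probe sets. The fit was also run on simulated data with known changes in the WT PPT arrays, and the outcome is not used here.

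The 7 genes were always named. Other retinoid genes were named when called with at least a 2-fold change, at most 12 by size. In all 16 genes met this rule, and the 12 with the largest changes were named. Rxra, Rara, Aldh1a3 and Rdh11 fall outside this rule and were named after their values were seen. The 3 nearest genes in profile were named for genes spanning at least 1 log2 unit. Genes and lists were chosen with earlier results of these data known. Alternatives were added constants of 1 and 64, no filter or a 60th percentile filter, median centring, quantile normalization, an intensity trend, the replicate number as a block, fits of only the groups compared, a Cyber-T-style test (p under 1e-04 and 2-fold, after the authors' test per the labels), and leaving out each array. Replicate numbers come from the sample titles. Deviations of same-numbered arrays from their group means correlated at -0.147 to 0.377 over 15 pairs of groups, with 5 over 0.1. The highest were those among the oil groups, 0.377 for ERKO with MOER, 0.354 for WT with MOER and 0.276 for WT with ERKO. No other pair of groups exceeded 0.127. The cause was not tested. The main fit did not pair arrays by number, and the block by replicate number is among the alternatives.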

Additional observations from a re-analysis of the deposited data

Results flagged for a closer look

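The 3 genotypes received the same treatment, and for 5 of the 7 genes the test of the difference between their PPT responses passed an adjusted p of 0.05 in limma. Over all tested probe sets 21.6% were called for MOER minus WT, 22.3% for ERKO minus WT and 11.5% for MOER minus ERKO. For Lrat the response differed by 2.03 (MOER minus WT) and by 2.27 (ERKO minus WT) on the log2 scale. For Cyp26a1 it differed by -1.55 (MOER minus WT) and by -1.66 (ERKO minus WT), with the PPT arrays below the oil arrays in MOER and ERKO and above them in WT. For Aldh1a1 it differed by 0.97 (MOER minus WT) and by 1.27 (ERKO minus WT). For Aldh1a7 it differed by 0.44 (ERKO minus WT). For Dhrs3 it differed by 1.03 (MOER minus WT), by 0.50 (ERKO minus WT) and by 0.53 (MOER minus ERKO), the 1 gene of the 7 with a called difference between MOER and ERKO. Among these, the ERKO minus WT calls of Aldh1a7 and Dhrs3 and the MOER minus ERKO call of Dhrs3 were lost with only the groups compared in the fit (adjusted p = 0.06, 0.0555 and 0.104) and when 1 array was left out in 5, 5 and 10 of 12 cases. The 11 tested pancreatic acinar markers were high in MOER oil livers, and 4 of 9 tested squamous and airway markers were called higher after PPT in ERKO livers. Those 4, and some of the 11, passed the filter on low values only through the arrays where they were high, so these counts are descriptive only. The part of either list was not tested.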

How the results depend on the processing

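Each of the 63 gene results (7 genes, 9 contrasts) was recomputed under every alternative, except that the Cyber-T-style test was run on the 3 PPT responses alone. Under other settings 536 of 588 values had the same call and direction, 23 lost the call, 25 gained it and 4 changed sign. With 1 array left out, 667 of 756 stayed, 56 lost the call, 20 gained it and 13 changed sign. All 17 values that changed sign were small and not called. Each gene has 1 probe set, so averaging probe sets gave nothing to compare. For Lrat, ERKO minus WT under oil became 0.042 with median centring and 0.037 with quantile normalization. For Aldh1a7, quantile normalization gave 0.085 for MOER minus ERKO responses and -0.0042 for MOER minus ERKO under oil. With 1 array left out, Lrat ranged from -0.057 to 0.035 (ERKO response) and from -0.12 to 0.040 (ERKO minus WT under oil), Aldh1a1 from -0.26 to 0.12 and from -0.096 to 0.28 in these same 2 comparisons, Rarb from -0.17 to 0.21 (ERKO minus WT under oil), Retsat from -0.14 to 0.078 (ERKO minus WT responses), Cyp26a1 from -0.19 to 0.41 (MOER minus ERKO responses) and Dhrs3 from -0.081 to 0.15 (MOER minus ERKO under oil). The cause of these changes was not tested. With the replicate number as a block, the genes of the 7 called in MOER became 2, by Rarb (adjusted p = 0.0451), and the block changed no other call of the 7 genes. Of the 7 genes, MOER calls were 2 with the 60th percentile filter, 3 with median centring, 3 with quantile normalization, 3 with an intensity trend, 2 with only the groups compared and 0 by the Cyber-T-style test. With only the groups compared the calls were also 1 in ERKO, 3 for ERKO minus WT responses, 0 for MOER minus ERKO responses, 0 for ERKO against WT under oil and 0 for MOER against ERKO under oil. The Cyber-T-style test called 1 of the 7 in ERKO. MOER against ERKO under oil gave 1 of the 7 with the added constant of 1 and 1 without a filter, and MOER minus ERKO responses 0 without a filter. Over all probe sets, calls without a filter were 552 (ERKO against WT under oil, 307 higher), 696 (MOER against WT) and 236 (MOER against ERKO). Median centring gave 3436 for MOER minus ERKO responses, and under oil 1654 for ERKO against WT (1030 higher, against 428 of 957 without it), 1670 for MOER against WT and 899 for MOER against ERKO (275 higher, against 171 of 392). Quantile normalization gave 1470 in MOER, 3500 for MOER minus ERKO responses, 1673 for ERKO against WT and 813 for MOER against ERKO under oil. The intensity trend gave 1626 and 767 for these last 2 comparisons. With only the groups compared there were 576 in ERKO, 1037 for MOER minus ERKO responses, 80 for ERKO against WT (52 higher) and 60 for MOER against ERKO under oil (37 higher). The Cyber-T-style test called 170 in MOER, 290 in ERKO (212 higher, against 1812 of 3430 in limma) and 1129 in WT. With 1 array left out, probe sets called ranged over 437 to 1672 in MOER, 1200 to 5346 in ERKO, 4026 to 7737 in WT, 2959 to 5607 for MOER minus WT, 2873 to 6735 for ERKO minus WT, 1078 to 4802 for MOER minus ERKO responses, 230 to 6329 for ERKO against WT, 249 to 3332 for MOER against WT and 123 to 2151 for MOER against ERKO under oil. Of the 7 genes, 1 to 4 were called in MOER, 1 to 4 in ERKO, 6 to 6 in WT, 4 to 6 for MOER minus WT, 3 to 5 for ERKO minus WT, 0 to 3 for MOER minus ERKO responses, and under oil 1 to 4 for ERKO against WT, 2 to 6 for MOER against WT and 0 to 3 for MOER against ERKO.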
